A study of Mus musculus with 10 samples.

Results

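The tankyrase genes Tnks and Tnks2 and 6 genes of the Wnt destruction complex and its turnover (Axin1, Axin2, Apc, Ctnnb1, Gsk3b and Rnf146) were read in 10 mouse RNA-seq libraries. They were taken by gene symbol, and all 8 were found among the 39769 symbols of the deposited table and passed the filter on low counts. The set was selected on the levels and group differences of these same libraries, which were known when it was put together. Their levels and differences are therefore a description, with no p-value. By label, 3 libraries were AKP (medulloblastoma, a tumour of the cerebellum, genotype AtohI-Cre Kmt2dfl/+ Ptch+/-), with AKP 1 and AKP 2 from mice of 2 months and AKP 3 from 4 months. A further 3 were NKP (medulloblastoma, Nestin-Cre Kmt2dfl/+ Ptch+/-, all of 4 months). The remaining 4 were Ptch (cerebellum, Ptch+/-), with Ptch 1 and Ptch 2 of 4 months and Ptch 3 and Ptch 4 of 2 months. All groups thus carry the Ptch mutation, and the tumours add a Cre driver and a floxed copy of Kmt2d, a histone methyltransferase gene. Atoh1 marks granule neuron precursors and Nestin neural progenitors at large. The labels name neither strain nor pooling.

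Wnt signalling works through the stability of beta-catenin, the product of Ctnnb1. In the absence of a Wnt ligand, the scaffolds Axin1, Axin2 and Apc hold beta-catenin beside the kinases Gsk3b and casein kinase, which mark it for destruction. Tankyrases are poly(ADP-ribose) polymerases that tag Axin, and the ubiquitin ligase Rnf146 reads that tag and sends Axin to the proteasome, so inhibitors of tankyrase raise Axin protein. Axin2 is itself switched on by beta-catenin and is widely read as a feedback gene of the pathway. In medulloblastoma, Wnt activity defines a tumour class of its own, apart from the Sonic hedgehog class that Ptch-mutant mice model. RNA levels do not show protein stability, where most of this regulation takes place.

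Promoters of the feedback gene Axin2, of Gsk3b, and of Tnks2 and Ctnnb1, whose levels followed each other most closely among the 8 genes, are shown first. The windows run from 250 bases before to 50 bases after the annotated start, 5′ to 3′ on the gene's strand, which is the plus strand for each of them (RefSeq, GRCm38.p6). They lie at chr11:108920099-108920398 for Axin2, chr16:38088751-38089050 for Gsk3b, chr19:36833982-36834281 for Tnks2 and chr9:120933150-120933449 for Ctnnb1, the first of its 2 listed starts. Capitals mark 3 motifs on either strand, namely the TCF/LEF core CTTTGA, the CCAAT box and the GC box GGGCGG.
Axin2: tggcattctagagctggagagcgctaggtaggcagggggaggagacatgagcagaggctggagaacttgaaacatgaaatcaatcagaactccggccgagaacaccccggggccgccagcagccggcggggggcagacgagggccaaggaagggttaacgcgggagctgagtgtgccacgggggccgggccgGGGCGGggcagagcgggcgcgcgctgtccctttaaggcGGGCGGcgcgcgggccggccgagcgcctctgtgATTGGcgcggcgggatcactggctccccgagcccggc
Gsk3b: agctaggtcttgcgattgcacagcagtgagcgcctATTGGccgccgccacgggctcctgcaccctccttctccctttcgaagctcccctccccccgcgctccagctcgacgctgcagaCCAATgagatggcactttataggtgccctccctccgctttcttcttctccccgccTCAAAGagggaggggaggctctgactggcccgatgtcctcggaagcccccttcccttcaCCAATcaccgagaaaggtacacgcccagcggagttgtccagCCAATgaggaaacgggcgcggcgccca
Tnks2: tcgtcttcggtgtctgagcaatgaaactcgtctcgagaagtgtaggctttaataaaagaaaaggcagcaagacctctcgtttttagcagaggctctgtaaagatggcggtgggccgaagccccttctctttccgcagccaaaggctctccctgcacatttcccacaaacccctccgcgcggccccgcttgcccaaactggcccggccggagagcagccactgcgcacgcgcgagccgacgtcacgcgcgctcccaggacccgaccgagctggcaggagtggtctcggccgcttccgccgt
Ctnnb1: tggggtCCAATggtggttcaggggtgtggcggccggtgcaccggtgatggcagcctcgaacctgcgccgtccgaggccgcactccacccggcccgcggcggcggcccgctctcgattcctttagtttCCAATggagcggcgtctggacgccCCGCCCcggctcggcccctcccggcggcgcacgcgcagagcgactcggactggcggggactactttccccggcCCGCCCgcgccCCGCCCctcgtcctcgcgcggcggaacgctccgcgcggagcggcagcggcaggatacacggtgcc

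Among these windows the TCF/LEF core stood once, in Gsk3b, and it was found in 16% of all 32851 mouse promoter windows of the same length. Axin2 had 2 GC boxes and 1 CCAAT box, Gsk3b had 4 CCAAT boxes, and Ctnnb1 had 2 CCAAT boxes and 3 GC boxes. CCAAT boxes were found in 37.4% and GC boxes in 35.7% of all windows. The Tnks2 window held none of the 3 motifs in these letters. GC content was 70.0% in Axin2, 63.0% in Gsk3b, 61.7% in Tnks2 and 75.3% in Ctnnb1. Promoter windows were read for 5 of the 8 genes. Windows on chromosome 18, where Apc lies, were left out beforehand, and Tnks and Axin1 had no match. The motif matches are a description of letters, not of binding.

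Depth and label checks bear on every value that follows. Total counts ran from 12300430 to 19348991 per library. Kmt2d was at 34.3 to 43.6 CPM (counts scaled to library size) in AKP, 33.2 to 58.0 CPM in NKP and 52.6 to 68.4 CPM in Ptch libraries, so NKP overlapped Ptch. In AKP 3, NKP 3, Ptch 1 and Ptch 3 sex-linked genes did not match the labelled sex. The proliferation gene Mki67 was at 0.575 to 49.1 CPM in AKP, 0.654 to 11.8 CPM in NKP and 27.3 to 84.1 CPM in Ptch, and the precursor gene Atoh1 was at 0 in AKP 1 and NKP 1. Granule neuron precursor markers summed to 80.1 to 250 CPM in AKP, 80.4 to 135 CPM in NKP and 182 to 380 CPM in Ptch, so the libraries labelled tumour were not the highest in genes that define such tumours. Mature granule neuron and Purkinje cell markers were detected in every library. Red blood cell markers summed to 1740 to 2232 CPM in AKP, 780 to 2483 CPM in NKP and 710 to 814 CPM in Ptch. Oligodendrocyte markers summed to 8566 to 10712 CPM in AKP and 7383 to 11889 CPM in NKP, above the 5844 to 7184 CPM in Ptch. Endothelial markers, at 155 to 189 CPM in AKP and 152 to 185 CPM in NKP, were likewise above the 105 to 142 CPM in Ptch. Red blood cell, oligodendrocyte and endothelial markers moved with the comparisons against Ptch. The part of all these markers in the values below was not tested. In bulk tissue, fewer cells of a type and less RNA per cell cannot be told apart.

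Of the 8 genes, Tnks differed most between AKP and each other group. Tnks, which encodes tankyrase 1 (chromosome 8, 34826460 to 34965690, minus strand, GRCm38), was lower in all AKP libraries than in any NKP or Ptch library. It was at 6.58, 4.98 and 5.60 CPM in AKP 1 to 3, at 10.6, 14.3 and 13.7 CPM in NKP 1 to 3, and at 12.8, 9.61, 16.4 and 11.4 CPM in Ptch 1 to 4. The NKP and Ptch libraries overlapped fully. Group means were 5.72 ± 0.805 CPM in AKP (SD, n = 3), 12.9 ± 1.97 CPM in NKP (SD, n = 3) and 12.5 ± 2.87 CPM in Ptch (SD, n = 4). The fitted log2 fold change was -1.14 (SE 0.204) in AKP against Ptch, -1.18 (SE 0.214) in AKP against NKP and 0.04 (SE 0.191) in NKP against Ptch. In AKP the level was thus 0.455 times that in Ptch and 0.443 times that in NKP.

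**Figure D1:**
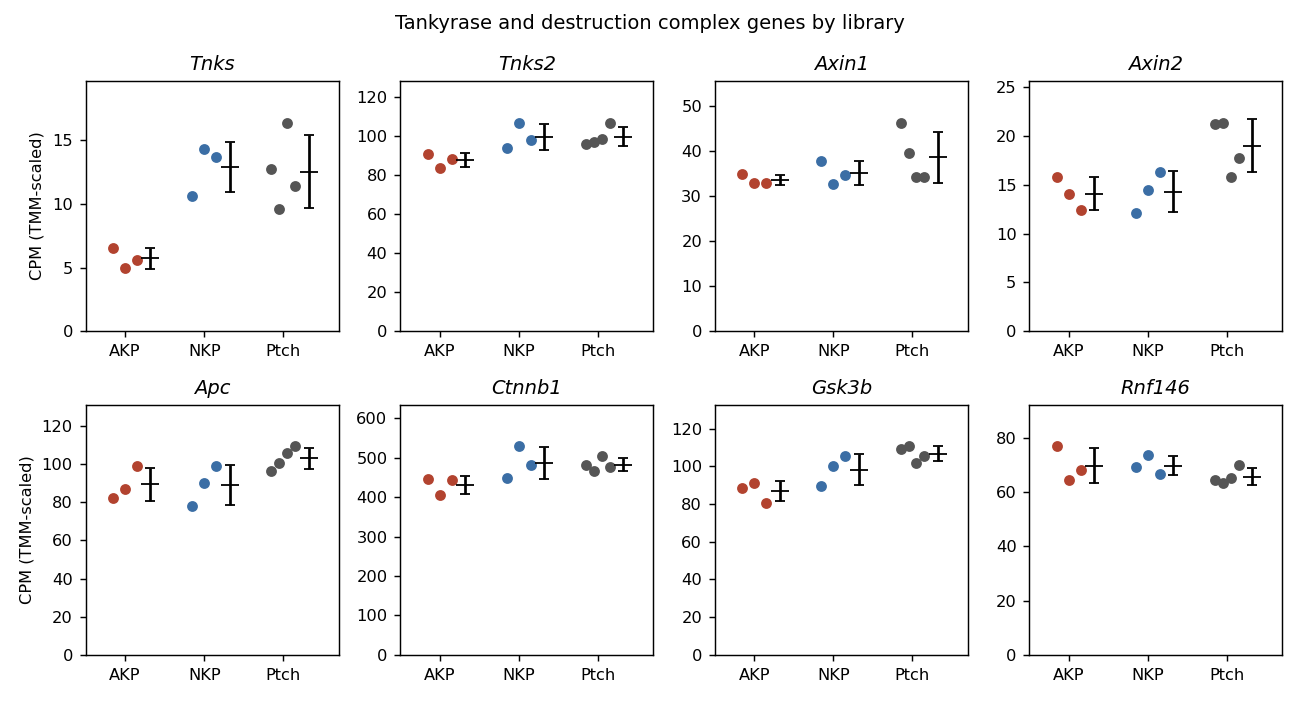
TMM-scaled CPM of each of the 8 genes in every library, with AKP, NKP and Ptch from left to right; each dot is a library and the black bar is the group mean ± SD. Tnks is at 4.98 to 6.58 CPM in AKP, below all other libraries, while Rnf146 overlaps across the 3 groups.

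Tnks was lower in AKP than in Ptch libraries of either age. At 2 months it was at 6.58 and 4.98 CPM in AKP 1 and AKP 2 and at 16.4 and 11.4 CPM in Ptch 3 and Ptch 4. At 4 months it was at 5.60 CPM in AKP 3, at 10.6 to 14.3 CPM in NKP 1 to 3, and at 12.8 and 9.61 CPM in Ptch 1 and Ptch 2. AKP 1 and NKP 1 were the closest libraries across groups in the counts of all genes (chi-square per degree of freedom 3.44), with Mki67 at 0.575 and 0.654 CPM and red blood cell sums of 2032 and 2483 CPM. Tnks was at 6.58 CPM in AKP 1 and at 10.6 CPM in NKP 1. The next closest pairs across groups were NKP 3 with Ptch 4 (3.81) and NKP 3 with Ptch 3 (5.35). By the same measure the NKP libraries stood 15.1 to 16.6 apart. Ptch 1 lay close to Ptch 2 (3.46) and Ptch 3 to Ptch 4 (3.28), with 25.8 to 28.8 between these pairs. Brainstem neuron markers summed to 4.11, 78.7 and 65.1 CPM in AKP 1 to 3 and to 21.9 to 27.7 CPM in Ptch. The part of these markers in the Tnks values was not tested. The counts behind these levels ran from 69 to 322.

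Tnks2, the gene for tankyrase 2 (chromosome 19, 36834232 to 36893477), encodes an enzyme with overlapping function and varied far less. It was at 90.7, 83.5 and 88.4 CPM in AKP 1 to 3, 93.8, 107 and 97.7 CPM in NKP 1 to 3, and 96.0, 97.1, 98.5 and 107 CPM in Ptch 1 to 4. All AKP values lay below all others, by a small margin to NKP 1. The log2 fold change was -0.19 (SE 0.0806) in AKP against Ptch, -0.18 (SE 0.0859) in AKP against NKP and -0.002 (SE 0.08) in NKP against Ptch.

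Within each library, Tnks counts can be set against Tnks2 counts, which removes the scaling between libraries. Tnks made up 6.76%, 5.62% and 5.96% of the counts of the 2 tankyrase genes in AKP 1 to 3. Its share was 10.2%, 11.8% and 12.3% in NKP 1 to 3, and 11.7%, 9.0%, 14.3% and 9.66% in Ptch 1 to 4. The highest AKP share, in AKP 1, had an exact 95% binomial interval of 5.39% to 8.34%, and the lowest Ptch share, in Ptch 2, of 7.80% to 10.3%. The groups did not overlap, but these 2 intervals did, and intervals cover counting error only. Per kilobase of longest transcript, Tnks was 4.04% to 4.88% of tankyrase RNA in AKP, 7.42% to 9.01% in NKP and 6.54% to 10.5% in Ptch. Tnks2 was thus the more abundant tankyrase transcript in each library.

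**Figure D2:**
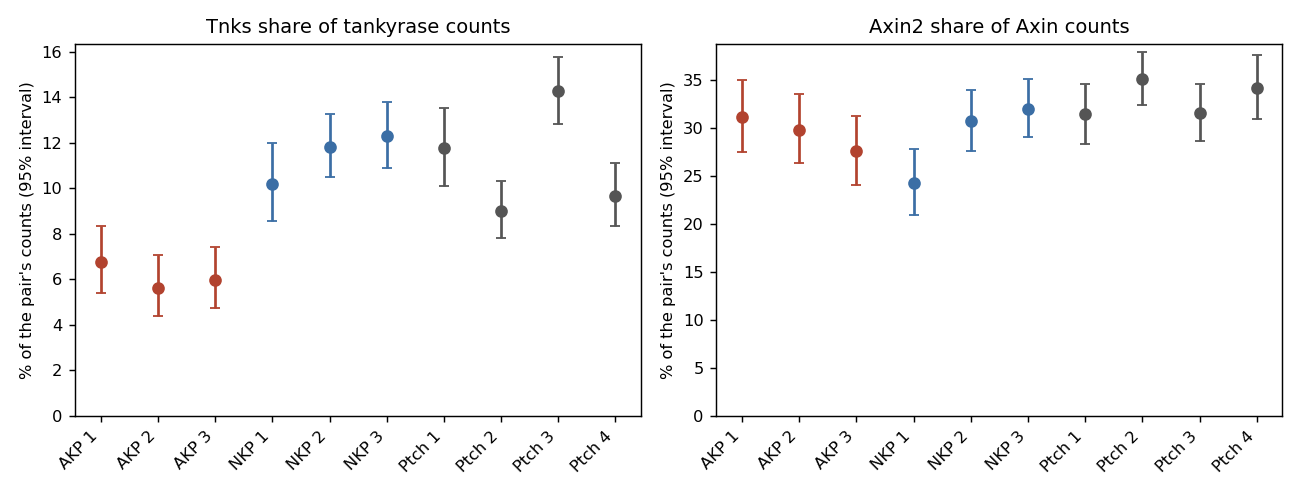
Left, Tnks as a percentage of Tnks plus Tnks2 counts; right, Axin2 as a percentage of Axin1 plus Axin2 counts, in AKP, NKP and Ptch libraries from left to right; bars are exact 95% binomial intervals. The Tnks share is 5.62% to 6.76% in AKP and 9.0% to 14.3% in Ptch, and the Axin2 share is 27.5% to 31.1% in AKP and 31.4% to 35.1% in Ptch.

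Scaffold genes of the complex were lower in AKP or NKP means than in Ptch means, with overlap between groups. Axin2 (chromosome 11, 108920349 to 108950783), the feedback gene, was at 15.8, 14.0 and 12.5 CPM in AKP 1 to 3, 12.1, 14.4 and 16.3 CPM in NKP 1 to 3, and 21.2, 21.3, 15.8 and 17.7 CPM in Ptch 1 to 4. Ptch 1 and Ptch 2, the libraries highest in Mki67, were highest in Axin2 (the part of proliferating cells was not tested), and Ptch 3 lay within the NKP range. Axin2 had log2 fold changes of -0.43 (SE 0.153) in AKP against Ptch, -0.41 (SE 0.152) in NKP against Ptch and -0.03 (SE 0.164) in AKP against NKP. Without Ptch 1 and Ptch 2 the values were -0.24 in AKP against Ptch and -0.23 in NKP against Ptch. In the libraries of 2 months alone, AKP against Ptch gave -0.17, and in those of 4 months alone, NKP against Ptch gave -0.57.

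Axin1 (chromosome 17, 26138688 to 26195811), the constitutive scaffold, was at 34.9, 33.0 and 32.8 CPM in AKP 1 to 3, 37.9, 32.6 and 34.7 CPM in NKP 1 to 3, and 46.3, 39.5, 34.3 and 34.1 CPM in Ptch 1 to 4. Ptch 1 stood highest and all groups overlapped. The log2 fold change was -0.20 (SE 0.116) in AKP against Ptch and -0.02 both without Ptch 1 and Ptch 2 and in the libraries of 2 months alone. Axin2 made up 27.5% to 31.1% of the counts of the 2 Axin genes in AKP, 24.2% to 32% in NKP and 31.4% to 35.1% in Ptch. AKP lay below Ptch in each library, and NKP overlapped Ptch.

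Apc (chromosome 18, 34220924 to 34322552), the large scaffold whose loss activates Wnt signalling in the gut, was at 82.2, 86.7 and 99.1 CPM in AKP 1 to 3, 78.0, 90.1 and 98.9 CPM in NKP 1 to 3, and 96.5, 100, 106 and 109 CPM in Ptch 1 to 4. AKP 3 and NKP 3 lay within the Ptch range and the others below it. The log2 fold change was -0.21 in both AKP against Ptch (SE 0.0994) and NKP against Ptch (SE 0.0992). In the libraries of 2 months alone, Apc had -0.35 in AKP against Ptch. Its longest transcript, of 12.81 kb, was the longest of the 8 genes.

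The kinase gene Gsk3b and the substrate gene Ctnnb1 were lower in AKP without overlap with Ptch. Gsk3b (chromosome 16, 38089001 to 38246084) was at 88.7, 90.9 and 80.7 CPM in AKP 1 to 3, 89.3, 100 and 105 CPM in NKP 1 to 3, and 109, 111, 102 and 106 CPM in Ptch 1 to 4. NKP 1 lay within the AKP range and NKP 3 within the Ptch range. Its log2 fold change was -0.30 (SE 0.0845) in AKP against Ptch and -0.12 (SE 0.0839) in NKP against Ptch. Ctnnb1 (chromosome 9, 120929216 to 120960507), for beta-catenin, was at 446, 406 and 443 CPM in AKP 1 to 3, 449, 529 and 481 CPM in NKP 1 to 3, and 482, 465, 504 and 477 CPM in Ptch 1 to 4. AKP values were lowest, and AKP 1 lay close to NKP 1. The log2 fold change of Ctnnb1 was -0.16 (SE 0.0883) in AKP against Ptch and 0.01 (SE 0.088) in NKP against Ptch.

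Rnf146 (chromosome 10, 29344176 to 29362442), the ligase that acts on tankyrase-tagged proteins, was the only 1 of the 8 genes with a positive value in AKP against Ptch. It was at 76.9, 64.5 and 68.1 CPM in AKP 1 to 3, 69.1, 73.7 and 66.5 CPM in NKP 1 to 3, and 64.6, 63.2, 65.1 and 70.0 CPM in Ptch 1 to 4. The groups overlapped, and both log2 fold changes against Ptch were 0.09 (SE 0.086). Rnf146 shares 3129 exonic bases with Echdc1 on the other strand, which averaged 35.1 CPM in AKP, 36.3 CPM in NKP and 28.9 CPM in Ptch. The libraries do not mark strand, so reads of this pair cannot be told apart. Ctnnb1 shares 759 bases with Ulk4, at 2.82 CPM in AKP and 3.60 CPM in Ptch, or 0.693% of the Ctnnb1 level. Tnks shares 635 exonic bases with Gm9939 and Axin2 shares 209 with Gm11670, each on the other strand. Neither symbol was found in the deposited table, so their part in the Tnks and Axin2 counts was not tested.

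**Figure D3:**
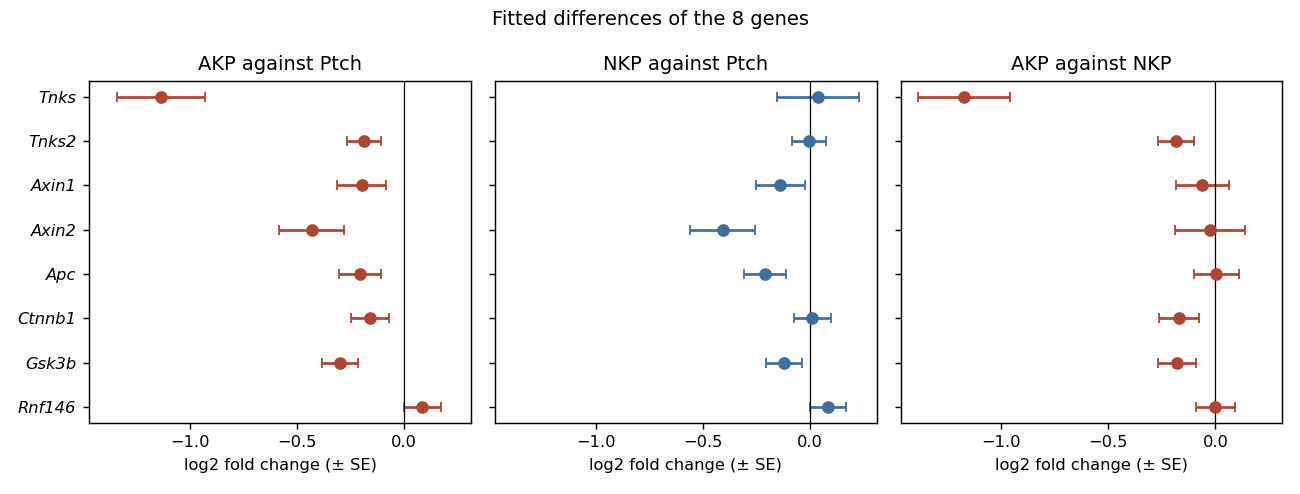
Fitted log2 fold change with its SE (bars) for each of the 8 genes in AKP against Ptch, NKP against Ptch and AKP against NKP. Tnks stands at -1.14 and -1.18 in the comparisons with AKP and at 0.04 in NKP against Ptch; the other 7 lie between -0.43 and 0.09 in all 3.

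Counted over the 8 genes, 7 of 8 had a log2 fold change below 0 in AKP against Ptch, with a median of -0.20 beside -0.02 over all 15617 genes tested. At an edgeR adjusted p below 0.05, 1 of the 8 (Tnks) was called lower, where 5.68% of all genes were called and 2.3% were called lower. DESeq2 called Tnks and Gsk3b, among 1940 genes called in all. The same pair was called by 3 edgeR alternatives (the 2 groups alone, without NKP 1, and without NKP 1, NKP 2 and AKP 1). These called 1211, 1250 and 1790 genes in all. AKP lay wholly below Ptch for 4 of 8 genes (Tnks, Tnks2, Ctnnb1 and Gsk3b), against 12% of all genes. In NKP against Ptch the median was -0.06 beside 0.01 over all genes, and none of the 8 was called by edgeR or DESeq2, where edgeR called 0% of all genes (2660 at an unadjusted p under 0.05). With libraries of 4 months alone Axin2 was called lower in NKP, among 2575 genes called in all. NKP lay wholly below Ptch for 0 of 8 and wholly above for 0 of 8 genes, against 8.95% and 6.96% of all genes. In AKP against NKP, 0 of 8 genes was called by either tool, where edgeR called 0.0064% of all genes (2633 at an unadjusted p under 0.05). Without AKP 1, Tnks was called lower in AKP by edgeR, among 1364 genes called in all. AKP lay wholly below NKP for 3 of 8 (Tnks, Tnks2 and Ctnnb1), against 9.52% of all genes. Since the genes were picked with these comparisons known, nothing is read from these counts. The 2 comparisons with Ptch share the Ptch libraries.

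The size of the Tnks difference in AKP against Ptch was read under 24 alternatives, again as a description. Leaving out 1 library at a time gave log2 fold changes from -1.25 (without AKP 1) to -0.98 (without Ptch 3). Libraries of 2 months alone gave -1.27, and removing the 4 sex-mismatched libraries gave -0.86. The value was below 0 in all 24, while 9 of them left Tnks uncalled, among them the fits without AKP 2, AKP 3, Ptch 1 or Ptch 2. Those fits called 1, 0, 1 and 1 genes in all, and none of the 9 called more than 16.

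Transcript length moved with the AKP against Ptch comparison. Genes with a longest transcript of at least 4820 bases had a median log2 fold change of -0.20, and those with one of up to 2173 bases 0.22. In NKP against Ptch these medians were -0.03 and 0.06. By library, the median log2 deviation of these long genes was -0.09, -0.16 and -0.09 in AKP 1 to 3, -0.08, 0.07 and 0.09 in NKP 1 to 3, and 0.04 to 0.11 in Ptch. NKP 1 thus shared the shift of the AKP libraries. Its Tnks level of 10.6 CPM lay above the AKP libraries and below NKP 2 and NKP 3 (14.3 and 13.7 CPM). The part of length in these levels was not tested. Tnks, with a longest transcript of 9.16 kb, Gsk3b with 8.30 kb and Tnks2 with 6.48 kb lie in that long class together with Apc.

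After each library was corrected for trends with length and GC content, Tnks stood at -0.90 (SE 0.183) in AKP against Ptch and -0.99 in AKP against NKP. This fit called 16 genes in all, without Tnks. Tnks2 moved to -0.04, Gsk3b to -0.09 and Apc to 0.07, a change of sign. Axin2 stood at -0.33, Axin1 at -0.11, Ctnnb1 at -0.12 and Rnf146 at 0.11. The correction takes length and GC content together, and the part of each was not tested.

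**Figure D4:**
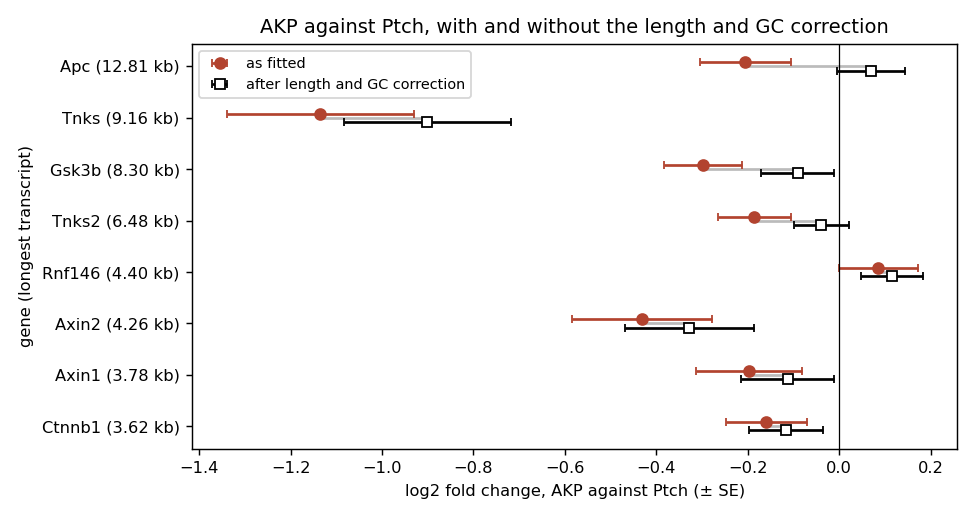
Log2 fold change in AKP against Ptch (± SE) for the 8 genes, ordered by longest transcript, as fitted (filled circles) and after correction for length and GC trends (open squares). Tnks stays at -0.90, Axin2 at -0.33, and the long transcripts of Tnks2, Gsk3b and Apc move to between -0.09 and 0.07.

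Levels of different genes are compared here only per kilobase of longest transcript, in CPM per kb as mean ± SD over all 10 libraries. Ctnnb1 was highest at 129 ± 9.55. Rnf146 (15.5 ± 0.997) and Tnks2 (14.8 ± 1.13) followed and did not differ beyond their spread, with Rnf146 above Tnks2 in 6 of 10 libraries. Gsk3b (11.8 ± 1.22), Axin1 (9.52 ± 1.12), Apc (7.39 ± 0.794), Axin2 (3.78 ± 0.752) and Tnks (1.16 ± 0.424) came next, each above the following gene in 10 of 10 libraries. The transcripts in use may be shorter than the longest annotated one, which would raise these levels. Tnks also varied the most over libraries, 3.29 times between the lowest and the highest, and its SD of log2 CPM exceeded that of 87.9% of all genes. Rnf146 varied least, by 1.22 times, with only 3.90% of genes below it.

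Genes with the most similar pattern were found by the root mean square (RMS) difference of centred log2 CPM over the 10 libraries. Pcdhga12, a clustered protocadherin gene, was closest to Tnks, with an RMS difference of 0.164 beside a spread of 0.564 for Tnks itself. Pcdhga12 was at 14.5, 9.96 and 11.3 CPM in AKP 1 to 3, 17.5, 25.9 and 24.97 CPM in NKP 1 to 3, and 22.2, 19.9, 29.1 and 27.8 CPM in Ptch 1 to 4. The second was 2610005L07Rik, with 0.221. Tnks2 and Ctnnb1 were each other's nearest among the 8 genes, with an RMS difference of 0.0512, and only 7 of 15609 other genes were closer to Tnks2. Among the 8 genes Gsk3b came closest to Tnks, at 0.473, behind 1819 other genes. Axin2 was closest to Utp20 (0.0751) and Slc7a6 (0.0886), Axin1 to Gtpbp1 (0.0554) and Arhgef10l (0.0565), and Apc to Pde1c (0.0581) and Flii (0.0623). For Gsk3b the nearest were Ipmk (0.0429) and Dcaf7 (0.0484), for Tnks2 Pcyox1 (0.0371) and Tmcc3 (0.0410), for Ctnnb1 Ttc9 (0.0425) and Dnajc5 (0.0437), and for Rnf146 Rnf103 (0.0426) and Polr3k (0.0458).

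Other genes of the pathway were read from 8 lists of 153 genes, of which 136 were tested. The lists were chosen with earlier results of these data known. Their counts and p-values below are therefore a description. In AKP against Ptch, 9 of the 136 were lower and 2 higher at an edgeR adjusted p below 0.05, against 2.3% lower and 3.38% higher among all genes. The median log2 fold change of the 136 genes was -0.10 beside -0.02 over all genes. Leaving out any of AKP 2, AKP 3, Ptch 1 and Ptch 2 brought the count to 0, and it was 2 without Ptch 4, 4 without Ptch 3 and 7 without NKP 2, and 0 after the length and GC correction. The 9 lower genes had longest transcripts of 3.98 to 9.37 kb, and the 2 higher genes of 2.67 and 3.45 kb. After the length and GC correction, log2 fold changes were -0.25 for Lrp6, -0.45 for Amer1, -0.36 for Bcl9 and -0.20 for Chd8. They were -0.24 for Numa1, -0.15 for Tnks1bp1 and 0.31 for Rbx1. The values given below for these genes are uncorrected.

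Receptors and their partners were among the lower genes in AKP. Lrp6, the co-receptor for Wnt ligands, was at 26.2, 27.3 and 25.8 CPM in AKP 1 to 3 and at 37.9, 37.4, 36.5 and 36.2 CPM in Ptch 1 to 4 (log2 fold change -0.48, SE 0.105, edgeR adjusted p = 0.0275). The receptor gene Fzd1 was at 43.4 ± 6.89 CPM in AKP (SD, n = 3) and 58.6 ± 5.88 CPM in Ptch (SD, n = 4), a log2 fold change of -0.43 (edgeR adjusted p = 0.0487). Of 22 receptor and turnover genes tested, these 2 fell and none rose. Among ligands, Wnt11 rose at a very low level, 1.09 ± 0.343 CPM in AKP (SD, n = 3) and 0.239 ± 0.228 CPM in Ptch (SD, n = 4), by 2.16 (edgeR adjusted p = 0.0454). It was the only called gene of 13 ligand and secretion genes tested. No gene of 14 listed as Wnt inhibitors passed, and Kremen1 had the smallest p (-0.33, edgeR adjusted p = 0.124).

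Among transducers, Amer1, which recruits the destruction complex to the membrane, was at 10.3, 10.1 and 9.88 CPM in AKP 1 to 3, 10.9, 12.3 and 13.0 CPM in NKP 1 to 3, and 17.6, 15.3, 14.8 and 16.3 CPM in Ptch 1 to 4. Its log2 fold change in AKP against Ptch was -0.66 (SE 0.129, edgeR adjusted p = 0.0218). Neither tumour group overlapped Ptch, and in NKP against Ptch Amer1 had -0.40 (edgeR adjusted p = 0.218). Dvl3, a Dishevelled gene, fell by 0.44 on the log2 scale (edgeR adjusted p = 0.0344) and Rbx1, a ubiquitin ligase subunit shared by many complexes, rose by 0.43 (edgeR adjusted p = 0.0321). These 3 were the called genes of 27 tested. The paralogs Gsk3a (-0.03) and Apc2 (-0.27) and the kinase gene Csnk1a1 (0.04), singled out after their values were seen, did not pass.

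Nuclear partners of beta-catenin had the lowest list median, -0.30, with 3 of 22 genes lower and none higher. Bcl9, a coactivator, was at 19.0 ± 2.05 CPM in AKP (SD, n = 3) and 28.2 ± 1.90 CPM in Ptch (SD, n = 4), a log2 fold change of -0.57 (edgeR adjusted p = 0.0321). The chromatin remodeller gene Chd8 had -0.44 (edgeR adjusted p = 0.0279) and the corepressor subunit gene Tbl1x -0.46 (edgeR adjusted p = 0.0403). Of 15 feedback and target genes other than Axin2, none passed, and their median was -0.04. Ccnd1, which is also a Sonic hedgehog target, had the smallest p, with 60.5 ± 11.1 CPM in AKP (SD, n = 3) and 81.0 ± 12.8 CPM in Ptch (SD, n = 4) (-0.42, edgeR adjusted p = 0.0946).

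Proteins that bind tankyrase were tested as 14 genes, of which 2 fell and none rose. Numa1, a spindle pole protein modified by tankyrase 1, was at 83.3, 85.9 and 85.8 CPM in AKP 1 to 3, 87.1, 104 and 108 CPM in NKP 1 to 3, and 128, 127, 109 and 112 CPM in Ptch 1 to 4 (AKP against Ptch -0.49, SE 0.0961, edgeR adjusted p = 0.0220). Tnks1bp1, named for its binding to tankyrase 1, had -0.36 (edgeR adjusted p = 0.0431). The telomere gene Terf1, the first known tankyrase target, had 0.04 and was singled out after its value was seen. Of 18 other PARP and poly(ADP-ribose) removal genes none passed, and Parp1 had the smallest p (-0.35, edgeR adjusted p = 0.0598).

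**Figure D5:**
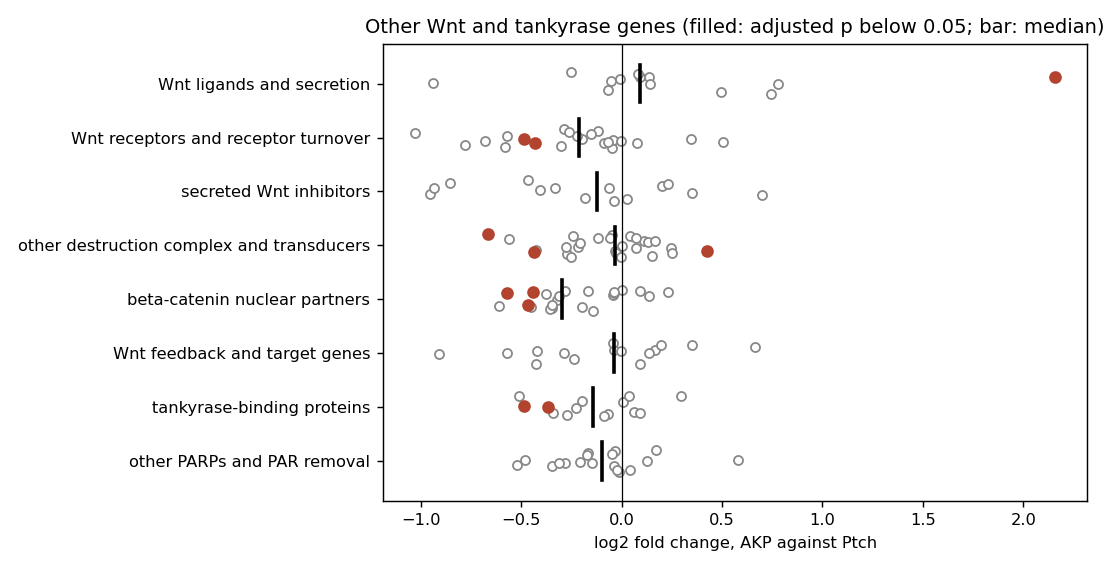
Log2 fold change in AKP against Ptch of every tested gene in 8 lists of Wnt and tankyrase genes other than the 8 described here; filled dots have an edgeR adjusted p below 0.05, open dots do not, and black bars are list medians. Filled dots lie below 0 for 9 genes and above 0 for Rbx1 and Wnt11.

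In NKP against Ptch, edgeR called 0 of the 136 pathway genes and DESeq2 called 6, beside 0 and 406 of all genes. At an unadjusted edgeR p under 0.05, 1060 of all 15617 genes were higher and 1600 lower. Of the 136 genes, 5 were higher and 27 lower. Those with the smallest p in their lists were Ror2 (-1.16), Sfrp2 (-2.24), Dvl2 (-0.64), Smarca4 (-0.35), Ccnd1 (-0.54), Sh3bp2 (-1.77), Parp11 (-0.61) and Wnt11 (2.01), each with an edgeR adjusted p of 0.218. Sfrp2, a secreted Wnt inhibitor, was at 2.36 ± 1.26 CPM in NKP (SD, n = 3) and 11.4 ± 4.92 CPM in Ptch (SD, n = 4). Mitosis markers summed to 3.92 to 39.9 CPM in NKP and 88.7 to 291 CPM in Ptch, and their part in these values was not tested.

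In AKP against NKP, edgeR and DESeq2 called 0 of the 136 genes, beside 1 and 230 of all genes. At an unadjusted edgeR p under 0.05, 1377 of all 15617 genes were higher and 1256 lower. Of the 136 genes, 7 were higher and 16 lower. The median was -0.05 beside -0.01 over all genes. The genes with the smallest p in their lists were Fzd4 (-1.43), Wnt9b (-1.18), Frat2 (0.83), Ep300 (-0.49), Kremen1 (-0.32), Sox9 (-0.26), Sh3bp2 (1.497) and Parp14 (-0.67), with edgeR adjusted p from 0.228 to 0.423. Fzd4, a Wnt receptor gene of blood vessels, was at 1.34 ± 0.141 CPM in AKP and 3.61 ± 1.15 CPM in NKP (SD, n = 3 each). Without AKP 1, edgeR called 11 of the pathway genes, among 1364 genes called in all.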

How the data were processed

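RNA from 10 mouse libraries was prepared from poly-A RNA with the Illumina TruSeq RNA kit v2, per the labels' protocols. STAR, RSEM and Trim Galore, with the GRCm38 build, are listed in the submitters' processing notes, and the sources used here give no tool versions and no annotation release. The deposited values are whole numbers with differing library totals and were taken as RSEM expected counts, so rounding them changed nothing. The members and lists were chosen with earlier results of these data known.

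A filter on low counts (filterByExpr, 3 groups) kept 15617 of 39769 symbols. These were TMM-scaled and fitted together in edgeR 4.0.16 (R 4.3.3) with no covariate, and the robust quasi-likelihood F test was used with Benjamini-Hochberg adjustment and a threshold of 0.05. SE is the log2 fold change divided by the square root of F. CPM is on the TMM scale. The fit was tested on simulated data in which libraries were drawn independently of each other. That setting does not cover the pairs of like libraries seen here. Total counts of 12300430 to 19348991 set the precision, and the binomial intervals cover counting error only. The labels do not state that each library is its own animal, and the p-values then reflect only spread between libraries, which may be technical.

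Longest transcripts, their length and GC content, and gene positions came from GENCODE vM21 (GRCm38), and promoters from RefSeq (GRCm38.p6). The length and GC correction used lowess trends (span 0.3) of each library's deviations in log2 CPM (prior count 1), for the 95.6% of tested genes with a length. Named pathway genes were, in each list and comparison, up to 3 called genes with the smallest p, or the 1 with the smallest p where none was called. Likeness was the RMS difference of centred log2 CPM, with the 2 nearest genes named for each member. Alternatives were RLE and upper quartile scaling, DESeq2 1.42.0, other filters, fits of 2 groups, covariates for age or labelled sex, libraries of matched age, a block for the replicate number, the length and GC correction, and leaving out each library, the 4 against their sex label, Ptch 1 with Ptch 2, or NKP 1, NKP 2 and AKP 1.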

Additional observations from a re-analysis of the deposited data

How the results depend on the processing

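RLE scaling, upper quartile scaling and both other filters kept every count of called genes within 1.5 times. Upper quartile scaling called 994 genes in AKP against Ptch, 74.5% of them higher, as against 887 and 59.5% with TMM. DESeq2 called 1940 genes in AKP against Ptch (18 pathway genes), 406 in NKP against Ptch (6) and 230 in AKP against NKP. With sex label as a covariate, AKP against Ptch had 231 (2), and AKP against NKP 0. Age as a covariate gave 933 (14) in NKP against Ptch and 0 in AKP against NKP. Age-matched libraries gave 0 (0) in AKP against Ptch, 2575 (27) in NKP against Ptch, whose Ptch libraries are then Ptch 1 and Ptch 2 alone, and 419 (3) in AKP against NKP, with AKP 3 as the only AKP library. A fit of 2 groups gave 0 in AKP against NKP. Without the 4 libraries against their sex label, AKP against Ptch had 0 (0) and AKP against NKP 0; without Ptch 1 and Ptch 2 these were 0 (0) and 0. Without NKP 1, NKP 2 and AKP 1 they were 1790 and 12. The length and GC correction left 16 (0) in AKP against Ptch. Leaving out 1 library gave 0 to 1459 genes (0 to 13 pathway genes) in AKP against Ptch, 0 in NKP against Ptch in each case, and 0 to 1364 (0 to 11) in AKP against NKP, with the highest count of AKP against Ptch and of AKP against NKP when AKP 1 was left out. A group left with 1 library is assumed to vary like the others.

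The replicate number as a block gave 0 genes (0 pathway genes) in AKP against Ptch and 0 in AKP against NKP. Same-numbered libraries had correlations of their deviations from -0.33 to 0.34, and 2 of 9 libraries correlated best with their own number, so the numbers do not pair the libraries. No called result changed sign under any alternative run. Of 576 alternative values of the 8 members, 20 moved by more than the spread between replicates. The causes of these changes were not tested. Tnks, with 69 to 322 counts per library, had the fewest counts on average and is the member most limited by depth.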

Other observations

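Genes that neighbour the 8 genes on the chromosome were read as a description chosen after the values were seen. Of 9 tested genes within 1 Mb of Tnks, none was called in AKP against Ptch by edgeR, and their median log2 fold change was 0.07. Dusp4, a phosphatase gene 9.3 kb away and the nearest of them, had -0.44 (SE 0.259, edgeR adjusted p = 0.311). Saraf, a regulator of calcium entry, was the only neighbour whose AKP libraries lay wholly above Ptch (0.22, SE 0.0846, edgeR adjusted p = 0.124). Neighbours within 1 Mb called by edgeR in AKP against Ptch were 4 of 62 tested genes near Axin1, 4 of 29 near Ctnnb1 and 1 of 18 near Gsk3b, all higher, and 1 of 23 near Apc, lower, beside 3.38% higher and 2.3% lower among all genes. Tnks2, Axin2 and Rnf146 had 0 called neighbours of 14, 12 and 7. Against NKP, none of the 9 neighbours of Tnks was called in AKP by edgeR, with a median of -0.02.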
